A study of Mus musculus with 30 samples.

Results

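The transcription repressors Gfi1 and Gfi1b and the LSD1 corepressor complex that they recruit were followed as mouse embryonic stem cells (ESC) became blood progenitors. The 6 members were chosen by name as the genes *Gfi1*, *Gfi1b*, *Kdm1a* (which encodes LSD1), *Rcor1*, *Hdac1* and *Hdac2*, out of the 14685 genes with a deposited expression value. All 6 were above the detection limit of 1 FPKM in at least 1 sample, so all were among the 14525 genes tested. FPKM (fragments scaled to transcript length and to the fragments mapped in the sample) is a level per length, so the levels of different genes can be set side by side.

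RNA was sequenced from 30 samples, 2 for each of 15 groups, which are 5 cell populations in 3 genotypes of the E14 ESC line. ESC were cultured undifferentiated, Flk1+ cells were purified with antibody-coated magnetic beads from embryoid bodies, and the other populations were sorted on day 2 of blast culture, in which Flk1+ cells give rise to hemogenic endothelium and then to blood. All 3 carried KIT: HE1 had Tie2 without CD41, HE2 had Tie2 together with CD41, and progenitors had CD41 and no longer Tie2. The comparison asks how the loss of Sp3, or of DNA binding by Sp1, alters gene expression along this path.

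WT cells carried no mutation of either factor. Cells labelled Sp1_deltaDBD (Sp1 ΔDBD/ΔDBD, called Sp1 mutant cells from here on) make an Sp1 protein without its DNA-binding domain and have intact Sp3, and cells labelled Sp3KO (Sp3-/-) lack Sp3 and have intact Sp1. Each mutant is an E14 line, and the time spent as embryoid bodies depended on the line, so an effect of the mutation and another difference between the lines cannot be told apart. *Sp3* lay between 3.38 and 7.79 FPKM in the 10 Sp3-/- samples and between 25.9 and 58.1 FPKM in the 10 WT samples. *Sp1* lay between 14.8 and 40.5 FPKM in the Sp1 mutant samples and between 24.9 and 52.4 FPKM in WT, and reads from outside the deleted part check this label only weakly. The values were quantile normalised by the authors, the depth of each sample is unknown, and the spread between the 2 samples of a group is the only measure of error. The study's methods call the 2 samples of a group biological replicates, and p-values measure the spread between them.

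Gfi1 and Gfi1b are closely related zinc finger proteins that bind DNA through their zinc fingers and repress genes through a short SNAG domain at their N-terminus. The SNAG domain binds LSD1, a demethylase of histone H3 lysine 4, which is held by the scaffold protein CoREST (*Rcor1*) together with the deacetylases HDAC1 and HDAC2. During the endothelial-to-hematopoietic transition, Gfi1 and Gfi1b silence endothelial genes in hemogenic endothelium, and Gfi1b later serves in the erythroid and megakaryocytic lineages. Sp1 and Sp3 bind GC boxes, which are frequent in promoters of widely expressed genes.

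The promoters are shown because GC boxes are the letters that Sp1 and Sp3 recognise. RefSeq promoter windows (GRCm38.p6, 250 bases before and 50 after the start of transcription) were matched for 5 of the 6 members, with 2 windows for *Gfi1*; *Hdac1* is named only. Printed below are the stretches before the start for *Gfi1b* (chr2:28621983-28622232, minus strand) and *Hdac2* (chr10:36974294-36974543, plus strand), the members with a difference from WT in single populations, and for *Rcor1* (chr12:111039117-111039350, plus strand), whose window held the most GC boxes. Capitals mark the GC box (GGGCGG, which reads CCGCCC on the other strand) and the CCAAT box, with those letters or ATTGG on the other strand.
Gfi1b: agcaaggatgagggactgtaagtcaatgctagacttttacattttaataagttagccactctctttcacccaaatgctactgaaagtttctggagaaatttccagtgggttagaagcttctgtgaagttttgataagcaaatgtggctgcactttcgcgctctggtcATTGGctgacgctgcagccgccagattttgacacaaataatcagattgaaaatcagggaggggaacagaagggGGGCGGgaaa
Hdac2: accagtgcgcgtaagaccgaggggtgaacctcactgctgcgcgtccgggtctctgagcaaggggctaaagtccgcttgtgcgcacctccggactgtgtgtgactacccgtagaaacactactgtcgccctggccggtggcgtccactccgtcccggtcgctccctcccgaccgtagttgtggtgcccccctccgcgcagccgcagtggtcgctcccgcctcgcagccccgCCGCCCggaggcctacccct
Rcor1: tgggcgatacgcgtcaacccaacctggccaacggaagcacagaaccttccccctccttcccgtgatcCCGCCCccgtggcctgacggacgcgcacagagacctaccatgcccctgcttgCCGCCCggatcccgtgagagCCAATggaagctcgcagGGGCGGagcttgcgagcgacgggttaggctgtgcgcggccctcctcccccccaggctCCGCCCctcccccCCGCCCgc

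A GC box was present in 35.7% of all 32851 promoter windows. The *Gfi1b* window held 1, beginning at position -10 from the start, and 1 CCAAT box at -83, in a stretch of 44.3% GC. The *Hdac2* window held 1 GC box, at -20, in 69.7% GC. The *Rcor1* window held 6 GC boxes, the last of which begins 16 bases after the start and is not printed, and 1 CCAAT box, in 69.3% GC. Only 5.49% of all windows held 4 or more GC boxes, and the median window had 52.7% GC. Neither of the *Gfi1* windows (both 58% GC) and not the *Kdm1a* window (61.3% GC) held a GC box, while *Kdm1a* had 1 CCAAT box, which 37.4% of all windows share. Searched in the same way on both strands, the letters CACCC (on the other strand GGGTG), the core of the sites of Krüppel-like factors, were found once in *Gfi1b* and *Hdac2* and 2 times in *Kdm1a* and in 1 *Gfi1* window, against a presence in 57.5% of all windows. The letters AGATAA (on the other strand TTATCT) of GATA factors, present in 11.2% of all windows, were found in none of the 6 windows, and TGTGGT (on the other strand ACCACA) of RUNX factors, present in 16.8%, were found in *Hdac2* alone. A match describes these letters in these windows and is not a binding site.

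Both repressors were absent or nearly so in ESC and rose to their highest levels at different points of the path. *Gfi1* peaked in HE2, whereas *Gfi1b* peaked in progenitors. In these bulk samples, fewer cells of a type and less RNA per cell cannot be told apart.

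In WT ESC *Gfi1* was listed at 0.00133 and 0 FPKM, and in WT Flk1+ cells at 0.216 and 0.443 FPKM. In WT HE1 it was 1.40 and 2.49 FPKM, in HE2 3.87 and 5.75 FPKM, and in progenitors 1.47 and 1.89 FPKM. Both HE2 samples lay above all other WT samples, and the values of HE1 and progenitors overlapped. The step from Flk1+ cells to HE1 was a rise of 2.25 ± 0.35 on the log2 scale (SE, limma adjusted p = 2.4e-05), the step from HE1 to HE2 a further rise of 1.29 ± 0.35 (adjusted p = 0.013), and the step from HE2 to progenitors a change of -1.45 ± 0.35 (adjusted p = 0.0077). These and all later log2 differences are between means of log2(FPKM + 0.1), which understates changes of low genes. Of all genes tested, 52.2%, 53.0%, 21.9% and 13.2% passed the adjusted p of 0.05 at the 4 successive steps in WT cells, so a called step was common.

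*Gfi1b* was listed at 0.00105 and 0 FPKM in WT ESC and reached 1.85 and 2.09 FPKM in WT Flk1+ cells. It was lower in WT HE1, at 0.756 and 0.900 FPKM, before it climbed to 17.1 and 19.3 FPKM in HE2 and 55.0 and 56.2 FPKM in progenitors. No 2 neighbouring populations overlapped in this order, and *Gfi1b* was thus above *Gfi1* in Flk1+ cells, below it in HE1 and above it again in HE2 and progenitors. The dip from Flk1+ cells to HE1 measured -1.16 ± 0.38 (adjusted p = 0.014), the rise from HE1 to HE2 4.30 ± 0.38 (adjusted p = 5.7e-07) and the rise from HE2 to progenitors 1.61 ± 0.38 (adjusted p = 0.0061).

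**Figure D1:**
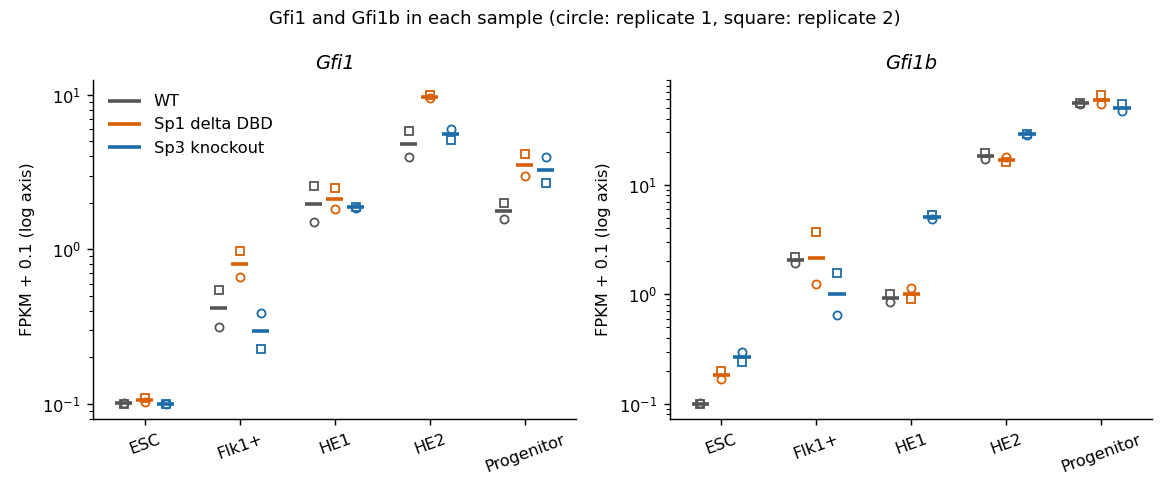
Level of *Gfi1* and *Gfi1b* in FPKM + 0.1 (log axis) in each of the 30 samples, by population and genotype (circles replicate 1, squares replicate 2, bars the geometric mean of the plotted values). *Gfi1* is highest in HE2 and *Gfi1b* in progenitors in all 3 genotypes, and the Sp3-/- samples of *Gfi1b* stand above the others in HE1.

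With the Sp1 mutation *Gfi1* was 0.00349 and 0.00836 FPKM in ESC, 0.561 and 0.875 in Flk1+ cells, 1.71 and 2.40 in HE1, 9.39 and 9.84 in HE2, followed by 2.89 and 4.03 in progenitors. Without Sp3 it was listed at 0 in both ESC samples, and was 0.290 and 0.127 FPKM in Flk1+ cells, 1.76 and 1.78 in HE1, 5.95 and 5.03 in HE2, followed by 3.85 and 2.58 in progenitors. HE2 was the highest population in every genotype. The order of the next 2 differed, with progenitors above HE1 in both mutants. The fall from HE2 to progenitors was called in Sp1 mutant cells (-1.47 ± 0.35, limma adjusted p = 0.0060) but not in Sp3-/- cells (-0.78 ± 0.35, adjusted p = 0.21), and the 2 mutants' steps did not differ detectably from the WT step (differences of -0.02 ± 0.49, adjusted p = 1.0, and 0.67 ± 0.49, adjusted p = 0.99).

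The corepressor genes were expressed in all 30 samples and moved little beside their partners. *Kdm1a*, *Hdac1* and *Hdac2* spanned 2.65-fold, 2.43-fold and 1.97-fold from the lowest to the highest sample, and *Rcor1* spanned 4.53-fold. Above 1 FPKM were 18 of the 30 samples for *Gfi1* and 20 of 30 for *Gfi1b*.

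*Kdm1a*, the LSD1 gene, was highest in ESC in every genotype. In WT it measured 129.7 and 110.3 FPKM in ESC, 102 and 108 in Flk1+ cells, 56.0 and 77.3 in HE1, 48.9 and 82.0 in HE2, followed by 62.9 and 74.7 in progenitors. WT ESC samples lay above all others, the samples of the 3 sorted populations overlapped, and the step from Flk1+ cells to HE1 was called (-0.67 ± 0.23, limma adjusted p = 0.019). In HE2 the 2 WT samples differed more from each other than the means of any of the 3 genotypes did.

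*Rcor1*, the CoREST scaffold gene, was the only corepressor gene that was lowest in ESC and highest in progenitors in all 3 genotypes. WT samples measured 10.3 and 10.04 FPKM in ESC, 16.6 and 18.4 in Flk1+ cells, 22.6 and 25.5 in HE1, 20.9 and 28.3 in HE2, followed by 27.5 and 26.4 in progenitors. The samples of ESC and Flk1+ cells lay apart from each other and below all later samples, whereas HE1, HE2 and progenitors overlapped in part. The rise from ESC to Flk1+ cells was called in WT (0.78 ± 0.20, adjusted p = 0.0032), Sp1 mutant (0.80 ± 0.20, adjusted p = 0.0027) and Sp3-/- cells (0.81 ± 0.20, adjusted p = 0.0025, all limma). From Flk1+ cells to HE1 it rose by 1.01 ± 0.20 in Sp3-/- cells (adjusted p = 0.00047), while the step measured 0.45 ± 0.20 in WT (adjusted p = 0.067) and 0.33 ± 0.20 in Sp1 mutant cells (adjusted p = 0.20); the difference between the Sp3-/- and WT steps, 0.56 ± 0.29, was not called (adjusted p = 0.31).

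*Hdac2* rose from ESC to Flk1+ cells and fell again in HE1 in each genotype. WT samples were at 68.9 and 69.4 FPKM in ESC, 94.4 and 93.7 in Flk1+ cells, 65.5 and 67.1 in HE1, 73.1 and 71.8 in HE2, followed by 71.1 and 68.5 in progenitors. Flk1+ cells stood alone at the top. The rise was 0.44 ± 0.10 in WT, 0.70 ± 0.10 in Sp1 mutant and 0.34 ± 0.10 in Sp3-/- cells (limma adjusted p between 1.3e-05 and 0.0098), and the fall -0.51 ± 0.10, -0.32 ± 0.10 and -0.35 ± 0.10 (adjusted p between 0.00041 and 0.015).

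*Hdac1* had the opposite trend, highest in ESC and lowest in progenitors in all 3 genotypes, but 0 of its 12 steps were called by limma, and 0 had an unadjusted p under 0.05. The step from ESC to Flk1+ cells was -0.44 in WT, -0.48 in Sp1 mutant and -0.44 in Sp3-/- cells. It was called in all 3 once the replicate number was a block (limma adjusted p = 0.0087, 0.0060 and 0.0097). The same held when same-numbered samples of a genotype were allowed to vary together. WT samples measured 62.1 and 52.6 FPKM in ESC, 42.1 and 42.0 in Flk1+ cells, 52.6 and 32.7 in HE1, 49.9 and 30.1 in HE2, followed by 43.2 and 29.4 in progenitors. Replicate 1 lay above replicate 2 in the 3 sorted WT populations, so most populations overlapped. The summed level of 6 mesenchyme and fibroblast markers was likewise higher in replicate 1 of these WT samples, at 1937 against 376 FPKM in HE1, 473 against 75.5 in HE2 and 311 against 90.9 in progenitors, and its part in the *Hdac1* values was not tested.

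Over all members, 33 of 72 steps within genotypes were called, 25 upwards and 8 downwards, and 22 of these steps belong to *Gfi1* and *Gfi1b* (11 of 12 each). Among all genes the called share fell from 48.6% and 46.1% at the earlier steps to 20% and 15.8% at the later ones in Sp1 mutant cells, and from 48.8% and 44.0% to 14.4% and 8.77% in Sp3-/- cells. Past HE1, all called steps were those of *Gfi1* and *Gfi1b*, and with the replicate block those of *Hdac2* in Sp1 mutant cells were called as well (0.29 from HE1 to HE2 and -0.21 from HE2 to progenitors, adjusted p = 0.0069 and 0.041).

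**Figure D2:**
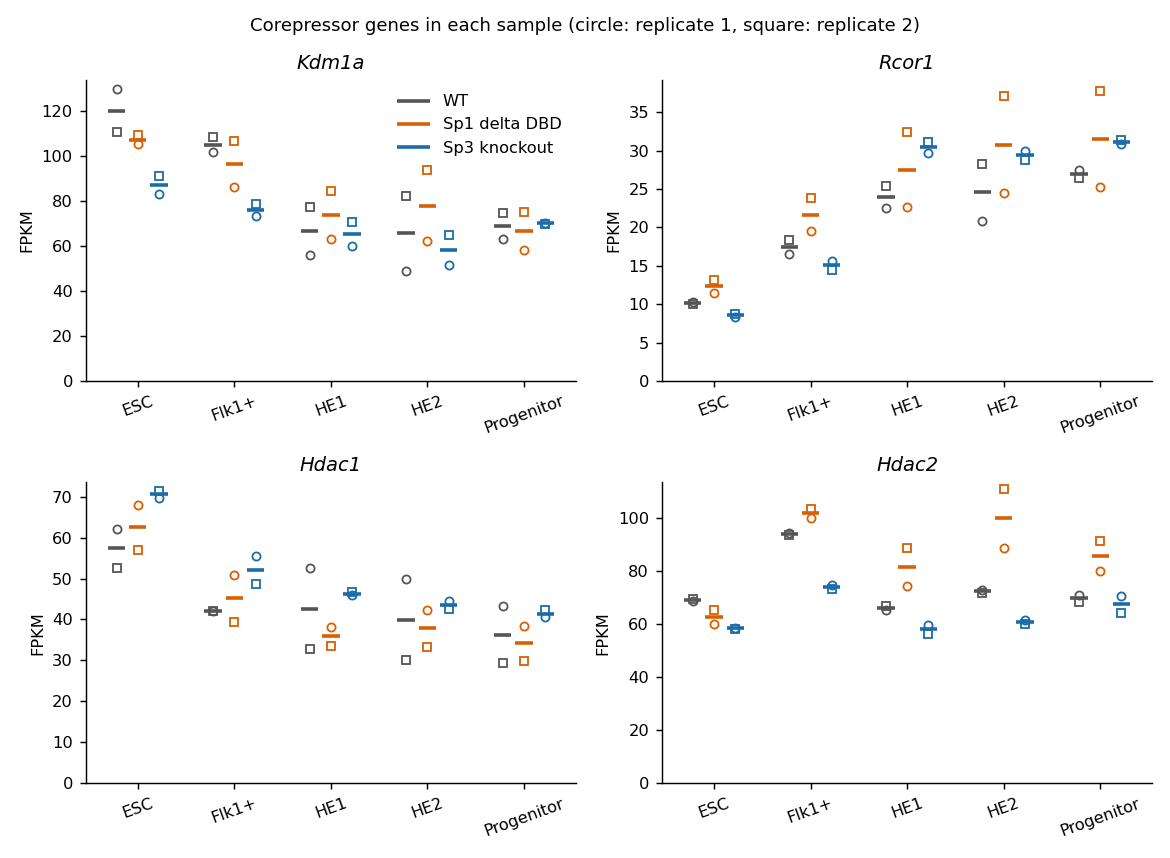
Level in FPKM (linear axis) of *Kdm1a*, *Rcor1*, *Hdac1* and *Hdac2* in each sample, by population and genotype (circles replicate 1, squares replicate 2, bars group means). *Kdm1a* and *Hdac1* are highest in ESC, *Rcor1* is lowest in ESC, and *Hdac2* is highest in Flk1+ cells.

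The difference that was largest among the members was that of *Gfi1b* in HE1 of Sp3-/- cells. The 2 Sp3-/- samples measured 4.73 and 5.24 FPKM, against 0.756 and 0.900 in WT and 1.04 and 0.797 in Sp1 mutant cells. Both Sp3-/- samples thus lay above all 4 others, while WT and Sp1 mutant samples overlapped. Over the populations, an average of 61.1% of all genes did not overlap between Sp3-/- and WT samples and 48.1% between Sp1 mutant and WT samples, so a lack of overlap is common. The log2 fold change against WT was 2.46 ± 0.38 (95% interval 1.67 to 3.24, limma adjusted p = 0.00052), a 5.49-fold difference, and that against Sp1 mutant cells was 2.33 ± 0.38 (adjusted p = 0.00045). In HE1, 10.9% of all genes differed between Sp3-/- and WT cells and 13.6% between the 2 mutants. When HE1 was fitted alone with its 6 samples, the adjusted p against WT was 0.059.

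In 1 other Sp3-/- population, ESC, the *Gfi1b* difference was called as well. In ESC the Sp3-/- samples had 0.197 and 0.143 FPKM and the Sp1 mutant samples 0.0678 and 0.0975 FPKM, where WT was listed at 0.00105 and 0. All mutant samples were above WT, and the difference was called for Sp3-/- (1.42 ± 0.38, limma adjusted p = 0.020, with 11.3% of all genes called) and not for Sp1 mutant cells (0.86 ± 0.38, adjusted p = 0.21). All these values lie below the 1 FPKM taken as expressed, and the call was lost with a pseudocount of 1, after correction for GC content and length (Spearman's rho with GC of 0.463 across genes in this comparison) and when any of the 4 samples was left out.

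In Flk1+ cells the direction was the other one. *Gfi1b* measured 0.551 and 1.47 FPKM in Sp3-/- samples, below the WT values of 1.85 and 2.09, while the Sp1 mutant samples, at 1.13 and 3.61, lay on either side. The Sp3-/- difference was -1.03 ± 0.38 (limma adjusted p = 0.079), where 12.6% of all genes were called. Pluripotency markers summed to 205 and 194 FPKM in these Sp3-/- samples and to 53.0 and 43.4 FPKM in the WT samples. By group means *Nanog* (9.03 against 10.9 FPKM) and *Esrrb* (0.631 against 0.74) were lower in Sp3-/- Flk1+ cells, and the rest of these markers were higher. Mesoderm markers summed to 544 and 594 FPKM in the same Sp3-/- samples and to 339 and 318 FPKM in WT. By group means *Kdr*, which encodes Flk1, was lower (180 against 200 FPKM), and the other mesoderm markers with values were higher. The part of these markers in the Flk1+ values was not tested.

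In HE2 the Sp3-/- samples reached 28.1 and 29.2 FPKM of *Gfi1b*, above 17.1 and 19.3 in WT and 17.8 and 15.9 in Sp1 mutant cells, a difference from WT of 0.65 ± 0.38 that was not called (95% interval -0.13 to 1.44, limma adjusted p = 0.27). In progenitors the Sp3-/- samples, at 46.6 and 54.0 FPKM, were below WT at 55.0 and 56.2, and the Sp1 mutant samples were at 54.0 and 65.6 (differences of -0.15 ± 0.38, adjusted p = 0.87, and 0.10 ± 0.38, adjusted p = 0.93). The lead of the Sp3-/- samples in HE1 was thus smaller in HE2 and not seen in progenitors, and Sp3-/- and WT samples overlapped in none of the 5 populations, as for 15.2% of all genes. Erythroid markers summed to 1547 and 3313 FPKM in Sp3-/- progenitors and to 13259.6 and 4126 FPKM in WT progenitors. By group means *Epor* was higher in Sp3-/- progenitors (27.1 against 20.8 FPKM), and the other erythroid markers were lower. The part of these markers in the *Gfi1b* values was not tested. Averaged over the 5 populations, *Gfi1b* was higher in Sp3-/- cells by 0.67 ± 0.17 (adjusted p = 0.0036), where 40.5% of all genes were called.

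The path of *Gfi1b* itself differed between Sp3-/- and WT cells. WT and Sp1 mutant cells lowered *Gfi1b* from Flk1+ cells to HE1 (-1.16 ± 0.38 and -1.08 ± 0.38, limma adjusted p = 0.014 and 0.024), whereas Sp3-/- cells raised it by 2.33 ± 0.38 (adjusted p = 5.3e-05). The difference between the Sp3-/- and WT steps, tested as an interaction term, was 3.49 ± 0.53 (adjusted p = 0.0019), and 4.02% of all genes had a called difference at this step. Before it, the rise from ESC to Flk1+ cells was 4.36 ± 0.38 in WT and 1.91 ± 0.38 in Sp3-/- cells, a difference of -2.45 ± 0.53 (adjusted p = 0.024, 1.48% of all genes called), which rests on the values near 0 in ESC and was -0.82 with a pseudocount of 1, no longer called. After HE1 the rise to HE2 was 4.30 ± 0.38 in WT and 2.50 ± 0.38 in Sp3-/- cells, and this difference of -1.80 ± 0.53 was not called (adjusted p = 0.50), at a step where 0% of all genes had a called difference (0 of 14525). Of the 48 differences of steps computed for the 6 members, these 2 calls were the only ones. The Sp1 mutation gave none for *Gfi1b*, with values between -0.81 and 0.21, where 1.74%, 1.53%, 0.00688% and 0.0207% of all genes were called at the successive steps. From HE2 to progenitors the Sp3-/- difference was -0.80 ± 0.53 (adjusted p = 0.98), with 0.0275% of all genes called.

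**Figure D3:**
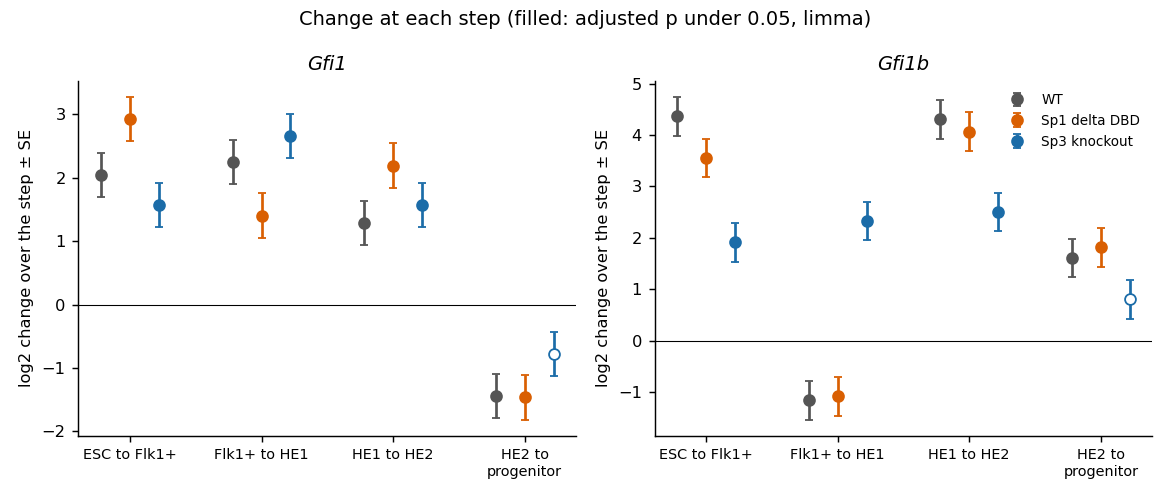
Log2 difference (± SE) of *Gfi1* and *Gfi1b* between neighbouring populations, by genotype, with filled symbols for an adjusted p under 0.05 (limma). From Flk1+ cells to HE1, *Gfi1b* falls in WT and Sp1 mutant cells (-1.16 and -1.08) and rises in Sp3-/- cells (2.33).

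Markers of other cell types were set beside the *Gfi1b* result. The HE1 gate took cells without CD41 on their surface. The group mean of *Itga2b*, the CD41 gene, was 82.6 FPKM in Sp3-/- HE1 and 42 FPKM in WT HE1. Erythroid markers (6 genes) summed to 95.3 and 90.0 FPKM in Sp3-/- HE1, 97.4 and 39.2 in WT and 20.6 and 13.1 in Sp1 mutant HE1. The Sp3-/- sums lay between those of the 2 WT samples, and the most abundant genes weigh most in them. By group means *Gata1* (0.634 against 0.0933 FPKM), *Klf1* (0.303 against 0.222), *Hbb-bh1* (61.8 against 40.8), *Alas2* (10.8 against 3.79) and *Epor* (4.81 against 1.97) were higher than in WT. The remaining gene was lower. Of these 6, *Alas2*, of heme synthesis, and *Epor*, the erythropoietin receptor, were called higher in Sp3-/- HE1 (*Alas2* 1.46 ± 0.45, limma adjusted p = 0.041). The megakaryocyte markers, 6 genes again, summed to 8.48 and 7.82 FPKM in Sp3-/- HE1 and 8.01 and 8.69 in WT, with the platelet gene *Pf4* below 0.1 FPKM in both. Blood progenitor markers gave 202 and 184 FPKM in Sp3-/- HE1 and 197 and 232 in WT, and only *Myb* of the 6 was called. These genes did not move together. By group means *Itga2b*, *Myb* (7.02 against 1.08 FPKM), *Runx1* (5.27 against 3) and *Spi1* (0.355 against 0.285) were higher in Sp3-/- HE1. *Kit* (20.3 against 21.9 FPKM) and the remaining gene were lower. Endothelial markers gave 954 and 956 FPKM in Sp3-/- HE1, 930 and 1385 in WT and 1055 and 1399 in Sp1 mutant HE1, with 0 of 6 called against WT in Sp3-/- cells. The mesenchymal sum was lower in Sp3-/- HE1 (215 and 131 FPKM) than in WT (1937 and 376). The part of these markers in the *Gfi1b* difference was not tested.

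*Gfi1* differed from WT in the other mutant. Both Sp1 mutant samples lay above both WT samples in 4 of the 5 populations, all but HE1, a pattern that 8.94% of all genes shared. In HE2 the values were 9.39 and 9.84 FPKM against 3.87 and 5.75 in WT, in progenitors 2.89 and 4.03 against 1.47 and 1.89, and in Flk1+ cells 0.561 and 0.875 against 0.216 and 0.443. The ESC values were near 0 in both genotypes. In no single population was the difference called by limma, at 1.01 ± 0.35 in HE2 (adjusted p = 0.074), 0.99 ± 0.35 in progenitors (adjusted p = 0.087) and 0.96 ± 0.35 in Flk1+ cells (adjusted p = 0.13), and at 0.11 ± 0.35 in HE1 and 0.07 ± 0.35 in ESC. An unadjusted p under 0.05 was found in 3 of the 5. Averaged over the populations, *Gfi1* was 1.55-fold higher (0.63 ± 0.16, adjusted p = 0.0047), a comparison in which 31.9% of all genes were called.

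Marker sums of Sp1 mutant cells were set beside these *Gfi1* values. Endothelial markers summed to 19.996 and 46.5 FPKM in Sp1 mutant Flk1+ cells and to 7.38 and 7.83 FPKM in WT Flk1+ cells, and all 6 were called higher (median 2.01). Erythroid markers were lower in Sp1 mutant HE1 (20.6 and 13.1 against 97.4 and 39.2 FPKM) and overlapped in HE2 (569 and 395 against 933 and 446). Blood progenitor markers gave 154 and 116 FPKM against 197 and 232 in WT HE1, and 285 and 369 against 431 and 616 in HE2. The most abundant genes weigh most in such a sum, and its genes did not move together. By group means *Runx1* (4.11 against 3 FPKM in HE1, 25 against 17.2 in HE2) and *Myb* (1.75 against 1.08, 41.5 against 35) were higher. *Kit* (18.9 against 21.9, 38.2 against 47.7) and *Spi1* (0.27 against 0.285, 5.72 against 7.12) were lower. The part of these markers in the *Gfi1* difference was not tested.

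Against WT, *Gfi1* was not called in any Sp3-/- population by limma, and 1 of the 5 had an unadjusted p under 0.05. The largest value was 0.88 ± 0.35 in progenitors (adjusted p = 0.13), where 3.85 and 2.58 FPKM lay above both WT samples, and the mean over populations was 0.10 ± 0.16 (95% interval -0.22 to 0.43, adjusted p = 0.63). Between the mutants, Sp3-/- Flk1+ cells had less *Gfi1* than Sp1 mutant Flk1+ cells, with 0.290 and 0.127 against 0.561 and 0.875 FPKM (-1.43 ± 0.35, adjusted p = 0.016). This call, where 7.39% of all genes were called, concerns values under 1 FPKM and was lost with a pseudocount of 1.

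The balance of the 2 repressors is given as the share of *Gfi1b* in the sum of both. In HE1 it was 35.0% and 26.6% in WT, 37.7% and 24.98% in Sp1 mutant and 72.9% and 74.6% in Sp3-/- cells, so *Gfi1b* was already the more abundant of the pair in Sp3-/- HE1 and not in the others. In HE2 the shares were 81.6% and 77.0% in WT, 65.5% and 61.7% in Sp1 mutant and 82.5% and 85.3% in Sp3-/- cells, and in progenitors all 6 samples lay between 92.4% and 97.4%. The Sp1 mutant samples were the lowest in HE2. Over HE1, HE2 and progenitors the log2 ratio of *Gfi1b* to *Gfi1* differed from WT by -0.67 in Sp1 mutant cells (two-sided exact permutation within populations, p = 0.046, adjusted over 4 tests of ratios p = 0.093) and by 0.65 in Sp3-/- cells (exact p = 0.25).

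*Hdac2* moved in opposite directions in the 2 mutants. In Sp1 mutant cells it was above both WT samples in Flk1+ cells (100.2 and 103 FPKM), HE1 (74.4 and 88.8), HE2 (88.9 and 110.9) and progenitors (80.1 and 91.5), and below both in ESC (59.9 and 65.3). Without Sp3 it was below both WT samples in ESC (58.7 and 58.2 FPKM), Flk1+ cells (74.8 and 73.3), HE1 (59.8 and 56.2) and HE2 (61.7 and 60.3), and overlapped WT in progenitors (70.7 and 64.4). As many as 8.94% of all genes lay above WT in at least 4 populations of the Sp1 mutant, 6.85% overlapped with WT in none of its 5, and 12.7% lay below WT in at least 4 populations of Sp3-/- cells.

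The changes of *Hdac2* were small. Its rise in Sp1 mutant HE2 was 1.37-fold (0.45 ± 0.10 on the log2 scale, limma adjusted p = 0.0082), the only call among the 30 comparisons of members between Sp1 mutant and WT cells. The share of all genes called between these genotypes was 6.06% in ESC, 5.54% in Flk1+ cells, 10% in HE1, 9.67% in HE2 and 8.78% in progenitors. In Sp3-/- Flk1+ cells *Hdac2* fell by 0.34 on the log2 scale (SE 0.10, adjusted p = 0.034), the third of 3 calls among 30 comparisons between Sp3-/- and WT cells beside those of *Gfi1b* in ESC and HE1. In HE2 and progenitors, where 13.8% and 8.65% of all genes were called between Sp3-/- and WT cells, no member passed. The averages over populations were 0.20 ± 0.05 in Sp1 mutant (adjusted p = 0.0024) and -0.22 ± 0.05 in Sp3-/- cells (adjusted p = 0.0011). Set directly against each other, Sp3-/- cells had less *Hdac2* than Sp1 mutant cells in Flk1+ cells (-0.46, adjusted p = 0.011), HE1 (-0.49, adjusted p = 0.0040), HE2 (-0.70, adjusted p = 0.00019) and progenitors (-0.34, adjusted p = 0.037, all with an SE of 0.10), and not detectably in ESC (-0.10 ± 0.10, adjusted p = 0.65).

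Changes against WT were related to the GC content of genes in several comparisons, with Spearman's rho across 14405 genes of 0.463 in Sp3-/- ESC and 0.338 in Sp3-/- Flk1+ cells. The *Hdac2* transcript has 41.9% GC. After correction for GC content and length, the *Hdac2* calls of Sp3-/- against WT in Flk1+ cells and of Sp3-/- against Sp1 mutant cells in Flk1+ cells, HE1 and progenitors were lost.

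**Figure D4:**
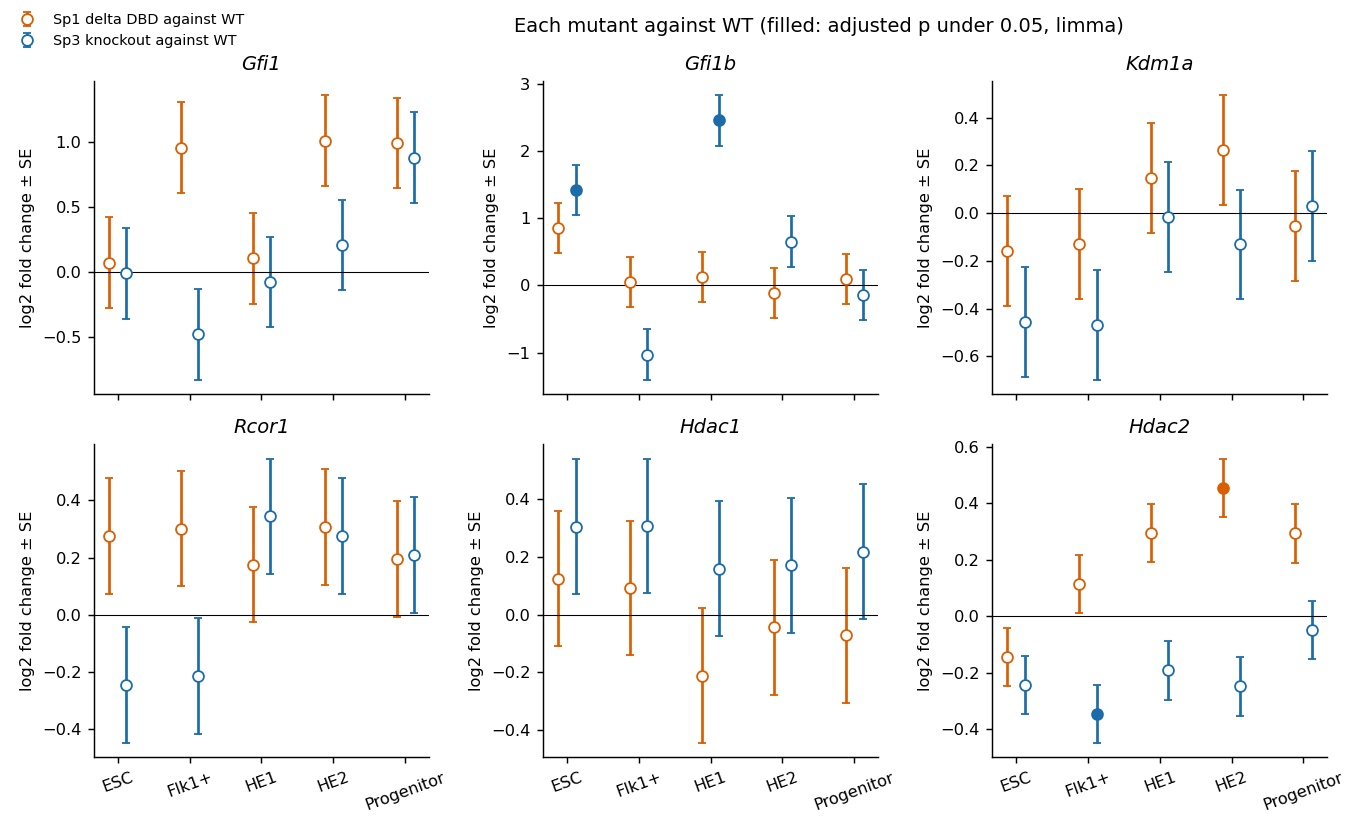
Log2 fold change against WT (± SE) of each of the 6 genes in each population, for Sp1 mutant and Sp3-/- cells, with filled symbols for an adjusted p under 0.05 (limma). The filled symbols are *Gfi1b* in Sp3-/- ESC and HE1 (1.42 and 2.46), *Hdac2* in Sp3-/- Flk1+ cells (-0.34) and *Hdac2* in Sp1 mutant HE2 (0.45).

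*Hdac1*, whose product can take the place of HDAC2 in the complex, was not called in any comparison by limma, and the mean over populations of Sp3-/- cells alone had an unadjusted p under 0.05. Without Sp3 it measured 69.6 and 71.5 FPKM in ESC and 55.4 and 48.7 in Flk1+ cells, above both WT samples, and 45.9 and 46.7 in HE1, 44.6 and 42.6 in HE2, then 40.6 and 42.2 in progenitors, between the 2 WT samples each time. The differences from WT lay between 0.16 and 0.31, and their mean was 0.23 ± 0.10 (limma adjusted p = 0.085). In the Sp1 mutant, with values between 29.9 and 68.1 FPKM, *Hdac1* overlapped WT in all 5 populations, and the mean difference was -0.02 ± 0.10 (adjusted p = 0.89).

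The share of *Hdac1* in the sum of both deacetylases was taken within each sample, from the quantile normalised values. In ESC it was 47.4% and 43.1% in WT, 53.2% and 46.6% in Sp1 mutant and 54.3% and 55.1% in Sp3-/- cells. In Flk1+ cells it was 30.8% and 30.9% in WT, 33.7% and 27.6% in Sp1 mutant and 42.5% and 39.9% in Sp3-/- cells. The Sp3-/- samples were above WT without overlap in these 2 populations, whereas the WT replicates of the later populations were far apart. Their shares were 44.6% and 32.8% in WT HE1, 40.6% and 29.5% in WT HE2 and 37.8% and 29.999% in WT progenitors, against 43.4% and 45.4%, 42.0% and 41.4%, and 36.5% and 39.6% in Sp3-/- cells. Sp1 mutant cells had 33.9% and 27.4% in HE1, 32.2% and 23.1% in HE2, then 32.4% and 24.6% in progenitors. The *Hdac1* transcript has 49.95% GC and that of *Hdac2* 41.91%. Changes of all genes in Sp3-/- cells rose with GC in each population (Spearman's rho between 0.112 and 0.463). Neither these shares nor the ratio of the 2 genes was corrected for GC content, whose part was not tested.

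The log2 ratio of *Hdac1* to *Hdac2* was higher in Sp3-/- than in WT cells by 0.45, in 5 of 5 populations by their means (two-sided exact permutation within populations, p = 0.0023, adjusted over 4 tests of ratios p = 0.0092; the smallest p these permutations can give is 0.00026). These permutations take the populations as independent, although HE1, HE2 and progenitors were all sorted from day 2 blast cultures. Same-numbered WT samples deviated from their group means together (correlation across 12016 genes of 0.410 for HE2 with HE1 and 0.427 for progenitors with HE2). In Sp3-/- cells these correlations were 0.154 and 0.078. If such samples share a culture, the permutation p is too small. With replicate 2 of each group alone the difference between Sp3-/- and WT cells was 0.68, and with replicate 1 alone it was 0.21 and positive in 3 of 5 populations, where exact permutation cannot go below p = 0.0625. For the Sp1 mutation the ratio differed from WT by -0.22 (exact p = 0.18, adjusted p = 0.24). Of the 10 same-numbered pairs of Sp1 mutant and WT samples, 7 were lower in the mutant, among them all 6 of HE1, HE2 and progenitors, and exchanging labels within these pairs, a test chosen after seeing the data, gave an exact permutation p of 0.072 (adjusted p = 0.125).

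**Figure D5:**
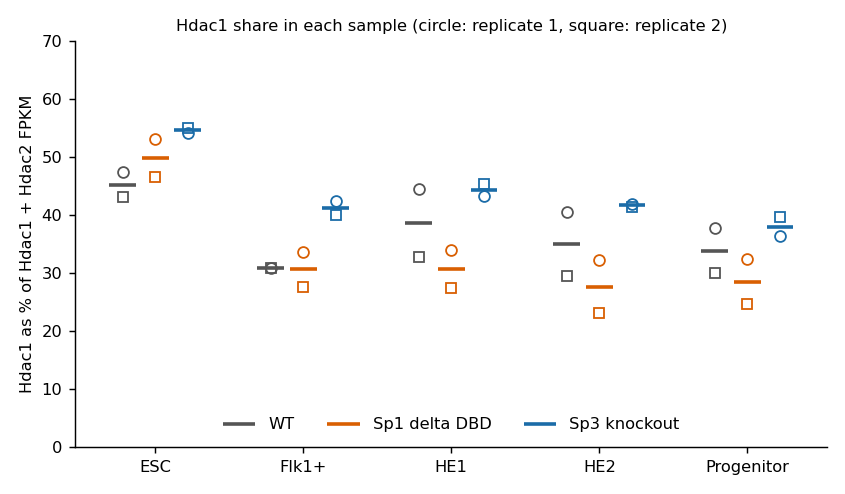
*Hdac1* as a percentage of the summed FPKM of *Hdac1* and *Hdac2* in each sample, by population and genotype (circles replicate 1, squares replicate 2, bars means). The Sp3-/- means exceed the WT means in each population, from 54.7% against 45.3% in ESC to 38.0% against 33.9% in progenitors, and the WT replicates of HE1, HE2 and progenitors lie apart.

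*Rcor1* was above both WT samples in Sp1 mutant ESC (11.5 and 13.2 FPKM) and Flk1+ cells (19.5 and 23.9), and overlapped WT in HE1 (22.7 and 32.4), HE2 (24.4 and 37.1) and progenitors (25.2 and 37.8), where the 2 mutant samples were far apart. Its difference from WT lay between 0.18 and 0.31 in the 5 populations, with 0 called and 0 at an unadjusted p under 0.05, and averaged 0.25 ± 0.09 (limma adjusted p = 0.041). Without Sp3 it was below both WT samples in ESC (8.34 and 8.77 FPKM) and Flk1+ cells (15.6 and 14.5) and above both in HE1 (29.7 and 31.2), HE2 (29.99 and 28.8) and progenitors (30.9 and 31.4). Likewise 0 populations were called, and 0 had an unadjusted p under 0.05, for Sp3-/- cells (values between -0.25 and 0.34), and the mean was 0.07 ± 0.09 (adjusted p = 0.55). The call of the average in Sp1 mutant cells was lost when same-numbered samples of a genotype were allowed to vary together and with no intensity trend. It was also lost when any of 12 of its 20 samples was left out, and was kept under 12 of 26 alternatives (highest adjusted p = 0.105).

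*Kdm1a* was not called against WT in either mutant, and 0 of its 10 limma comparisons had an unadjusted p under 0.05. With the Sp1 mutation it measured 105 and 109 FPKM in ESC, below both WT samples, 86.2 and 106 in Flk1+ cells, 63.0 and 84.5 in HE1, 62.0 and 93.4 in HE2, followed by 58.2 and 74.9 in progenitors. Without Sp3 it measured 83.2 and 91.2 FPKM in ESC and 73.2 and 78.3 in Flk1+ cells, below both WT samples, and 60.0 and 70.6 in HE1, 51.5 and 65.0 in HE2, followed by 70.3 and 69.6 in progenitors, overlapping WT. The Sp3-/- differences in ESC and Flk1+ cells were -0.46 ± 0.23 (95% interval -0.94 to 0.02) and -0.47 ± 0.23 (95% interval -0.95 to 0.01), with limma adjusted p of 0.23 and 0.20. The mean over populations was -0.21 ± 0.10 in Sp3-/- (adjusted p = 0.11) and 0.01 ± 0.10 in Sp1 mutant cells.

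Between the mutants, 6 of 30 comparisons of members were called, 1 higher and 5 lower in Sp3-/- cells, and these were *Gfi1b* in HE1, *Gfi1* in Flk1+ cells and *Hdac2* in 4 populations. In ESC, HE2 and progenitors, 9.67%, 15.9% and 11.6% of all genes were called between the mutants.

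The remaining genes of the pathway were examined as lists. Their changes are given as counts of genes called in at least 1 population, where 12.8% of all genes were called higher and 11.8% lower in Sp1 mutant cells, and 17.8% and 17.4% in Sp3-/- cells. Of 12 other genes of LSD1 and CoREST complexes, 2 were called higher in Sp1 mutant cells, *Kdm1b*, which encodes the related demethylase LSD2 (0.85 ± 0.15 in Flk1+ cells, 6.09 against 3.33 FPKM), and *Hmg20b*, a subunit of the complex (1.299 ± 0.35 in ESC, 21.3 against 8.72 FPKM). In Sp3-/- cells *Rcor2*, a paralogue of *Rcor1*, was called higher (1.01 ± 0.24 in HE2, 11.8 against 5.89 FPKM) and *Kdm1b* lower (-0.76 ± 0.15 in HE2, 2.03 against 3.50 FPKM, limma adjusted p = 0.0033).

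Of 17 genes of other class I deacetylases and of other HDAC1 and HDAC2 complexes (Sin3 and NuRD), 3 were called higher and 1 lower in each mutant. In Sp1 mutant cells these were *Chd3* in ESC (1.32 ± 0.25), the Sin3 scaffold gene *Sin3a* in HE1 (0.81 ± 0.16) and *Mta2* in Flk1+ cells (0.41 ± 0.12), and *Mta3*, which was lower in Flk1+ cells (-0.86 ± 0.13, 15.4 against 27.8 FPKM). Those of Sp3-/- cells were the NuRD genes *Gatad2a* in ESC (0.67 ± 0.20), *Mbd3* in HE2 (0.61 ± 0.14) and *Mta2* in Flk1+ cells (0.57 ± 0.12), and *Rbbp7*, a histone chaperone gene, which was lower in Flk1+ cells (-0.63 ± 0.11, 137 against 213 FPKM). *Mta2* was thus called higher in Flk1+ cells of both mutants, which share their WT samples.

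Of 14 genes for other SNAG domain proteins and partners of Gfi1 and Gfi1b, 12 were tested, and 2 were called higher and 0 lower in each mutant. *Ajuba*, which encodes a LIM protein that binds SNAG domains, was higher in HE2 of Sp1 mutant (0.79 ± 0.18, 23.9 against 13.8 FPKM) and of Sp3-/- cells (1.68 ± 0.18, 44.3 against 13.8 FPKM, limma adjusted p = 2.3e-05). *Runx1t1* was higher in Sp1 mutant progenitors (1.39 ± 0.32, 3.70 against 1.35 FPKM) and *Hmgb2* in Sp3-/- HE1 (0.71 ± 0.12, 111 against 68.0 FPKM).

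Of 14 blood transcription factors known to act above or beside *Gfi1* and *Gfi1b*, 6 were called higher and 2 lower in Sp1 mutant cells, and 8 higher and 1 lower in Sp3-/- cells. In Sp3-/- HE1, where *Gfi1b* was raised, all 14 were above 0 with a median of 0.59, against 0.05 for all genes, and 3 were called. These were the bHLH gene *Lyl1*, *Nfe2*, an erythroid and megakaryocytic factor (1.69 ± 0.24, 9.30 against 2.88 FPKM, limma adjusted p = 0.00027), and *Myb*, needed for definitive blood (2.59 ± 0.41, 7.02 against 1.08 FPKM, adjusted p = 0.00069). In Flk1+ cells *Etv2*, the factor that starts the blood and endothelial programme, was higher in Sp3-/- cells (2.01 ± 0.46, 93.2 against 24.2 FPKM), and *Erg* (1.84 ± 0.32) and *Fli1* (1.497 ± 0.30) were higher in Sp1 mutant cells. *Lmo2* was higher in Sp1 mutant HE1 (0.94 ± 0.21) and *Cbfb* lower in Sp1 mutant ESC (-0.48 ± 0.13).

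The endothelial programme that the 2 repressors silence was followed as a list of 25 endothelial genes, whose repression by Gfi1 or Gfi1b was not tested here. These genes rose on entry into HE1 and fell in HE2 and progenitors. In WT, 22 were called higher and 1 lower from Flk1+ cells to HE1 (median 4.81), 16 were called lower and 0 higher from HE1 to HE2 (median -1.08), and all 25 were called lower from HE2 to progenitors (median -2.68). At the last of these steps the sort itself exchanged Tie2+ for Tie2- cells. In Sp1 mutant and Sp3-/- cells 15 and 15 were called lower from HE1 to HE2, and 23 and 22 from HE2 to progenitors.

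Against WT, these 25 endothelial genes were counted in HE1 and HE2, where 10.9% and 13.8% of all genes were called in Sp3-/- cells and 10% and 9.67% in Sp1 mutant cells. In Sp3-/- HE1, with its higher *Gfi1b*, 2 were called lower and 0 higher (median -0.15, against 0.05 for all genes), *Hey1*, a Notch target (-1.27 ± 0.36, 3.47 against 8.54 FPKM), and *Gja5*. In Sp3-/- HE2, 2 were again called lower and 0 higher, the endothelial surface genes *Emcn* (-1.61 ± 0.48, 1.94 against 6.12 FPKM) and *Icam2* (-0.90 ± 0.27, 14.6 against 27.2 FPKM). In Sp1 mutant cells 4 were called lower and 1 higher in HE1, and 2 lower and 0 higher in HE2, among them *Gja4* (-1.95 ± 0.35, 11.03 against 39.6 FPKM). Counted over all populations, 9 were called higher and 8 lower in Sp1 mutant cells, and 11 higher and 5 lower in Sp3-/- cells. Among called genes above 3 FPKM in the higher group, the largest rises lay in Flk1+ cells. They were those of *Icam2* in Sp1 mutant cells (3.13 ± 0.27, 3.13 against 0.269 FPKM) and of *Sox18* in Sp3-/- cells (2.98 ± 0.48, 4.68 against 0.507 FPKM).

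Of 20 genes listed as known targets of Gfi1 or Gfi1b in blood cells, 2 were called higher and 3 lower in Sp1 mutant, and 6 higher and 3 lower in Sp3-/- cells. In Sp3-/- progenitors, *Id2*, an inhibitor of bHLH factors, was lower (-2.41 ± 0.41, 1.24 against 8.42 FPKM), as was the homeobox gene *Meis1* (-1.91 ± 0.30, 8.41 against 33.5 FPKM). *Meis1* was also lower in Sp1 mutant progenitors (-1.08 ± 0.30, 15.004 against 33.5 FPKM). The cell cycle inhibitor gene *Cdkn1a* was lower in Flk1+ cells of both mutants (-1.18 ± 0.20 in Sp1 mutant and -0.98 ± 0.20 in Sp3-/- cells) and higher in Sp1 mutant ESC (0.95 ± 0.20). *Id1* was higher in Sp3-/- Flk1+ cells (1.38 ± 0.40, 96.2 against 37.4 FPKM) and lower in Sp1 mutant HE2 (-1.29 ± 0.40, 21.3 against 46.3 FPKM).

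The genes whose pattern was most like that of each repressor were taken by Pearson's r over the 15 group means of log2(FPKM + 0.1), among 12016 genes with a group mean above 3 FPKM. The 15 means share the same 30 libraries and the normalisation, and r is given as a description. For *Gfi1b* they were *Nfe2* (r = 0.981), *F630111L10Rik* (0.978), *Ikzf2* (0.974), *Epb41*, of the red cell membrane skeleton (0.969), and *Gpr171* (0.968). For *Gfi1* they were *Samsn1* (0.978), *1700125H03Rik* (0.973), the glutamate receptor gene *Gria2* (0.973), *Spin4* (0.970) and *Ctse*, which encodes cathepsin E (0.969). Among the members themselves, *Rcor1* was the corepressor gene with the pattern nearest to *Gfi1* (r = 0.939) and *Gfi1b* (0.835), while *Kdm1a* (-0.801 and -0.724) and *Hdac1* (-0.845 and -0.762) ran the other way and *Hdac2* was near neither (0.247 and 0.182).

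In GRCm38 coordinates *Gfi1* lies on the minus strand of chr5:107716657-107726036 and *Gfi1b* on the minus strand of chr2:28609450-28621982. *Kdm1a* lies at chr4:136550540-136602723 and *Hdac1* at chr4:129516104-129542713, both on the minus strand, and *Rcor1* at chr12:111039351-111115901 and *Hdac2* at chr10:36974544-37001889, both on the plus strand. All are protein-coding genes. Annotated genes overlap *Gfi1* (*A430072P03Rik*), *Kdm1a* (*Luzp1* and *Gm12987*) and *Rcor1* (*Gm46379* and *Gm48632*), and since the study's methods name default settings for alignment and quantification, which set no strand, reads of these 3 members and of their overlapping genes cannot be fully told apart.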

How the data were processed

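RNA of 30 samples (5 cell populations, 3 genotypes, 2 replicates each) was sequenced from stranded total RNA libraries. The authors aligned the reads to mm10 with HISAT2 2.1.0, calculated FPKM values per gene with StringTie 1.3.3 per the submitters' processing notes, removed genes that never exceeded 1 FPKM, and quantile normalised the rest. The deposited FPKM values showed this, as 12742 of 14685 ranks were identical in all samples. Depth is unknown. No pair of samples was identical.

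Tests used limma 3.58.1 (R 4.3.3) with an intensity trend on log2(FPKM + 0.1) of 14525 genes, with 15 group means over all 30 samples (15 residual degrees of freedom). Two-sided p-values were adjusted (Benjamini-Hochberg) over all genes of a comparison, with a threshold of 0.05. A gene past it is described as called. Ratios of 2 members were tested by exact permutation of samples within populations, which takes the populations as independent. Groups came from the deposited labels. The labels do not say what a replicate number marks, so a replicate block was fitted as an alternative. Gene positions and GC content came from GENCODE M21 (GRCm38), promoters from RefSeq. Python 3.11.15, numpy 2.4.6, pandas 2.3.3, scipy 1.17.1 and matplotlib 3.10.9 were used. The scripts were tested on simulated data.

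All members were named. From each other list, named were up to 3 genes that rose and 3 that fell per mutant, by the largest log2 fold change among called genes whose higher group averaged over 3 FPKM. Not every gene that met this rule is named. *Lyl1*, *Gja5*, *Epor*, *Pf4*, *Runx1*, *Kit*, *Spi1*, *Nanog*, *Esrrb*, *Itga2b*, *Gata1*, *Klf1*, *Hbb-bh1* and *Kdr* were named after their values were seen. The result of 1 marker gene is not reported here. The members and lists were chosen with earlier results of these data known. Alternatives were a pseudocount of 1, other filters on low values, a replicate block, a random culture effect, no intensity trend, each population fitted alone, a correction for GC content and length, and leaving out each sample. The random culture effect let same-numbered samples of a genotype vary together, although no label says that they share a culture. Fitting each population alone and the correction for GC content and length were run only on comparisons of genotypes within a population.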

Additional observations from a re-analysis of the deposited data

Results flagged for a closer look

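The path of *Gfi1b* was singled out because its steps differed between Sp3-/- and WT cells by a test of the difference itself, the interaction term in limma. At the step from Flk1+ cells to HE1 the difference was 3.49 ± 0.53 on the log2 scale (adjusted p = 0.0019), and at the step from ESC to Flk1+ cells it was -2.45 ± 0.53 (adjusted p = 0.024). The former lay between 2.31 and 4.12 and stayed called under all 14 alternatives that applied to it, and the latter was lost with a pseudocount of 1 and without any of 7 samples (highest adjusted p 0.243).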

How the results depend on the processing

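Of 50 differences of members that were called, 26 stayed called under all alternatives run on them. Apart from leaving out a sample, 37 stayed called under all, and 0 were reversed. Another 21 differences were called only under an alternative. The number of members' calls between Sp1 mutant and WT cells was 1, and became 3 with a pseudocount of 1, 2 with a random culture effect, 0 with each population fitted alone, 2 after correction for GC content and length, and 1 to 3 when a sample was left out (3 without HE2 Sp1 mutant replicate 1). Between Sp3-/- and WT cells it was 3, and became 5 with the replicate block, which added falls of *Kdm1a* in ESC and Flk1+ cells and of *Gfi1b* in Flk1+ cells and lost that of *Hdac2*. Between the mutants it was 6, and became 2 with each population fitted alone. The 2 differences of steps became 1 with a pseudocount of 1, and 1 to 2 when a sample was left out. The difference in the *Hdac1* to *Hdac2* ratio between Sp3-/- and WT cells was 0.21 to 0.68 when a replicate number was left out, a design that cannot reach p under 0.05. The cause was not tested.

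The call of *Gfi1b* in Sp3-/- HE1 was lost only with HE1 fitted alone, which leaves 3 residual degrees of freedom, and its call against Sp1 mutant HE1 was kept under all 12 alternatives. The averages over populations of *Gfi1* in Sp1 mutant cells, of *Gfi1b* in Sp3-/- cells and of *Hdac2* in both were kept under all 26 that were run. Neither the correction for GC content and length nor the fit of each population alone was run on these averages. *Gfi1* in Sp1 mutant HE2 was called only with a pseudocount of 1. *Hdac2* in Sp1 mutant HE2 was lost with HE2 fitted alone and without replicate 2 of the mutant (adjusted p = 0.20), and *Hdac2* in Sp3-/- Flk1+ cells was lost with the replicate block, with no intensity trend and without any of the 4 samples. Same-numbered Sp1 mutant and WT samples deviated from their group means together (correlations of 0.222 to 0.455 across 12016 genes in the 5 populations), whereas those of Sp3-/- and WT samples were 0.0047 to 0.193, and no source states a shared batch. The replicate block changed no member's call between Sp1 mutant and WT cells. It also made the averages of *Kdm1a* (-0.21, adjusted p = 0.0075) and *Hdac1* (0.23, adjusted p = 0.035) called in Sp3-/- cells. Exchanging labels only within same-numbered pairs, chosen after seeing the data, kept the *Hdac1* to *Hdac2* ratio of Sp3-/- cells called (0.45, adjusted p = 0.039) and left the other 3 ratios uncalled (adjusted p of 0.125 to 0.344). Low values have no known depth, so *Gfi1* and *Gfi1b* below 1 FPKM are the least certain.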
